A study of Mus musculus with 2 samples.

Results

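The cell cycle genes described here are 52 genes, all of which were found by symbol among the 32285 genes of both libraries. They were grouped by role into 27 mitotic genes, 17 DNA replication genes, 5 genes of entry into the cycle from G1 and 3 genes listed as broadly expressed. They were read in leukocytes from subcutaneous B16F10-OVA tumours, a mouse melanoma line that carries ovalbumin as a model antigen. One group of mice received UDSP-Hep, an agent that the labels do not describe further, and the other received PBS, the vehicle control, on days 10, 12, 14 and 16. Tumours were taken on day 19, 3 tumours were pooled per group, CD45+ cells were sorted and 10000 cells per group were loaded for a 10x Genomics library of single-cell transcripts. There is thus 1 library per group, of 3 pooled tumours whose cells cannot be assigned to a mouse. No test across animals was possible, and every interval below is a 95% interval that covers counting error only.

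A dividing cell copies its DNA in S phase and separates the copies in mitosis. In G1, D-type cyclins with Cdk4 or Cdk6 and E-type cyclins with Cdk2 relieve the retinoblastoma protein's hold on E2F factors, and E2F then turns on the replication genes, among them the Mcm helicase subunits, Pcna and the enzymes of nucleotide supply. The mitotic genes peak later, under Foxm1, B-Myb and the MuvB complex, and are cleared after division. Antigen-activated CD8 T cells and regulatory T cells (Treg) are known to divide within tumours, while neutrophils are nondividing end cells.

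The libraries held 7872 barcodes in UDSP-Hep and 7379 in PBS, of which 7195 and 6717 were kept after filters and removal of the highest doublet scores. The kept cells carried 55744612 UMIs (unique molecular identifiers, 1 per captured transcript) in UDSP-Hep and 66052583 in PBS, with medians of 5480 and 7869 per cell. The libraries shared 25 barcodes, 19 of them kept in both. Leukocyte classes were set by marker genes that are not members, with names rebuilt here and thresholds chosen after seeing the data. The gated CD8 T cells had 1229 CPM of the CD8 markers in UDSP-Hep and 1341 in PBS, against 30.7 and 26.6 in all other cells, and the 872 and 499 cells that met no gate stayed out of the classes. Levels are CPM, a gene's UMIs scaled to a common total of UMIs in the class, and levels of different genes are not compared. A gene counts as higher or lower when its CPM ratio, UDSP-Hep over PBS, passes 1.5-fold with at least 20 UMIs summed over both libraries.

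A cell with UMIs of at least 3 mitotic members is called cycling below. The word stands for that count of genes and not for an observed division. The number of genes detected grows with a cell's UMIs, so shares are also given after each cell was thinned at random to 2000 UMIs. In neutrophils, 2 of 637 cells in UDSP-Hep (0.314%) and 1 of 43 in PBS (2.33%) passed the count, at medians of 2375 and 2266 UMIs. After thinning, neutrophils had 1 of 421 cells in UDSP-Hep (0.238%) and 0 of 28 in PBS.

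Promoter sequences of 3 mitotic and 3 replication members are shown because these groups differ between leukocyte classes in what follows and carry different short motifs. RefSeq promoter entries (GRCm38.p6, 250 bases before to 50 after the start) were found for 43 of the 52 members. TTTGAA and TTTAAA are forms of the CHR element known from G2 and M phase genes, CCAAT is the NF-Y element and TTTNNCGC is a short form of the E2F site. Each was searched on both strands. TTTGAA was in 16 of 23 mitotic promoters (69.6%) and in 1 of 15 replication promoters (6.67%), against 18.1% of all 27025 promoters. TTTNNCGC was in 1 of 23 mitotic promoters (4.35%) and in 9 of 15 replication promoters (60%), against 5.27% of all. CCAAT was in 20 mitotic promoters (87%) and 10 replication promoters (66.7%), against 37.9% of all. TTTAAA was in 7 mitotic promoters (30.4%) and 4 replication promoters (26.7%), against 13.2% of all. Each sequence below is 200 bases that end at the RefSeq start, or 9 bases (Cdc20) and 13 bases (Rrm2) before it, 5′ to 3′ on the gene's strand, with these motifs in capitals on either strand. A run of capitals longer than 8 bases is a pair of overlapping E2F-form matches on opposite strands. A match describes the letters and is not evidence of binding.
Top2a promoter, chr11:99024190-99024389, minus strand: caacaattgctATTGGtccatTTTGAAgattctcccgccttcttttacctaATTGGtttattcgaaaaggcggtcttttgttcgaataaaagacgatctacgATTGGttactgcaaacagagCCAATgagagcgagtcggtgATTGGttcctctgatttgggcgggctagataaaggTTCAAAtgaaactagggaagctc
Cenpf promoter, chr1:189688087-189688286, minus strand: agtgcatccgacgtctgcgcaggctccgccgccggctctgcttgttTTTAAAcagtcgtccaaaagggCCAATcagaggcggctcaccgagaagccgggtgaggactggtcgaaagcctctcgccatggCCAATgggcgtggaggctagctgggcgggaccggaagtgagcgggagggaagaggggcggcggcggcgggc
Cdc20 promoter, chr4:118437353-118437552, minus strand: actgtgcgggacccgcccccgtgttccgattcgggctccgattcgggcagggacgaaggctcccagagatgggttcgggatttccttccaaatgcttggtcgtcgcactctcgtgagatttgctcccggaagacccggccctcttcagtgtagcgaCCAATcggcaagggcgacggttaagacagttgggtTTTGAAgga
Mcm5 promoter, chr8:75109309-75109508, plus strand: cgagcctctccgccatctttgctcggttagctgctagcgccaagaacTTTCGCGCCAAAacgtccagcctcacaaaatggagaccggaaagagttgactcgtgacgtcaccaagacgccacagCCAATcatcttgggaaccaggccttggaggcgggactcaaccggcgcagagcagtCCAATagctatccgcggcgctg
Mcm6 promoter, chr1:128359706-128359905, minus strand: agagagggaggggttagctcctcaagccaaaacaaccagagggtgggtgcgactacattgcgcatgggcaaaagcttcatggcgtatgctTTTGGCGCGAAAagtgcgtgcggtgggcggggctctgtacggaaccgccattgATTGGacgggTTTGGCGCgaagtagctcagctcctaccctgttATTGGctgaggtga
Rrm2 promoter, chr12:24708041-24708240, plus strand: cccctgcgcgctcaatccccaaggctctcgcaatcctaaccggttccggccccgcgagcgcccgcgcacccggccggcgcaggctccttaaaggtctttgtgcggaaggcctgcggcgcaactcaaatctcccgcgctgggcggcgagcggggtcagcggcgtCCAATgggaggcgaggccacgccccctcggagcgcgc
The Top2a stretch holds TTTGAA beside several CCAAT boxes, Cenpf holds TTTAAA with CCAAT, and Cdc20 holds 1 CCAAT and 1 TTTGAA. Mcm5 and Mcm6 hold TTTNNCGC together with CCAAT, whereas the Rrm2 stretch holds CCAAT alone.

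Across all kept cells, 490 of 7195 cells in UDSP-Hep were cycling (6.81%, interval 6.24 to 7.42) and 666 of 6717 in PBS (9.92%, 9.21 to 10.7). The ratio was 0.687 (0.614 to 0.768), and after thinning the shares were 2.01% in UDSP-Hep and 3.61% in PBS. All 52 members together made up 1782 CPM in UDSP-Hep and 2251 CPM in PBS. Of the 52 members, 28 were lower and 0 higher, beside 7.23% lower and 13.3% higher among all 14512 genes tested. By the limit of the interval nearer to 1, the 2 members furthest above a ratio of 1 were Cks2, a small CDK-binding subunit, with 66.7 CPM in UDSP-Hep and 49.9 in PBS (ratio 1.34), and Cdt1, which loads the Mcm helicase, with 34.1 and 28.3 CPM in the same order (1.21). By the same limit, the 2 furthest below were Plk1, a mitotic kinase, with 3.32 CPM in UDSP-Hep and 7.58 in PBS (0.438), and Ube2c, the ubiquitin-conjugating enzyme of the anaphase-promoting complex, with 18.0 CPM in UDSP-Hep and 37.2 in PBS (0.485).

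**Figure D1:**
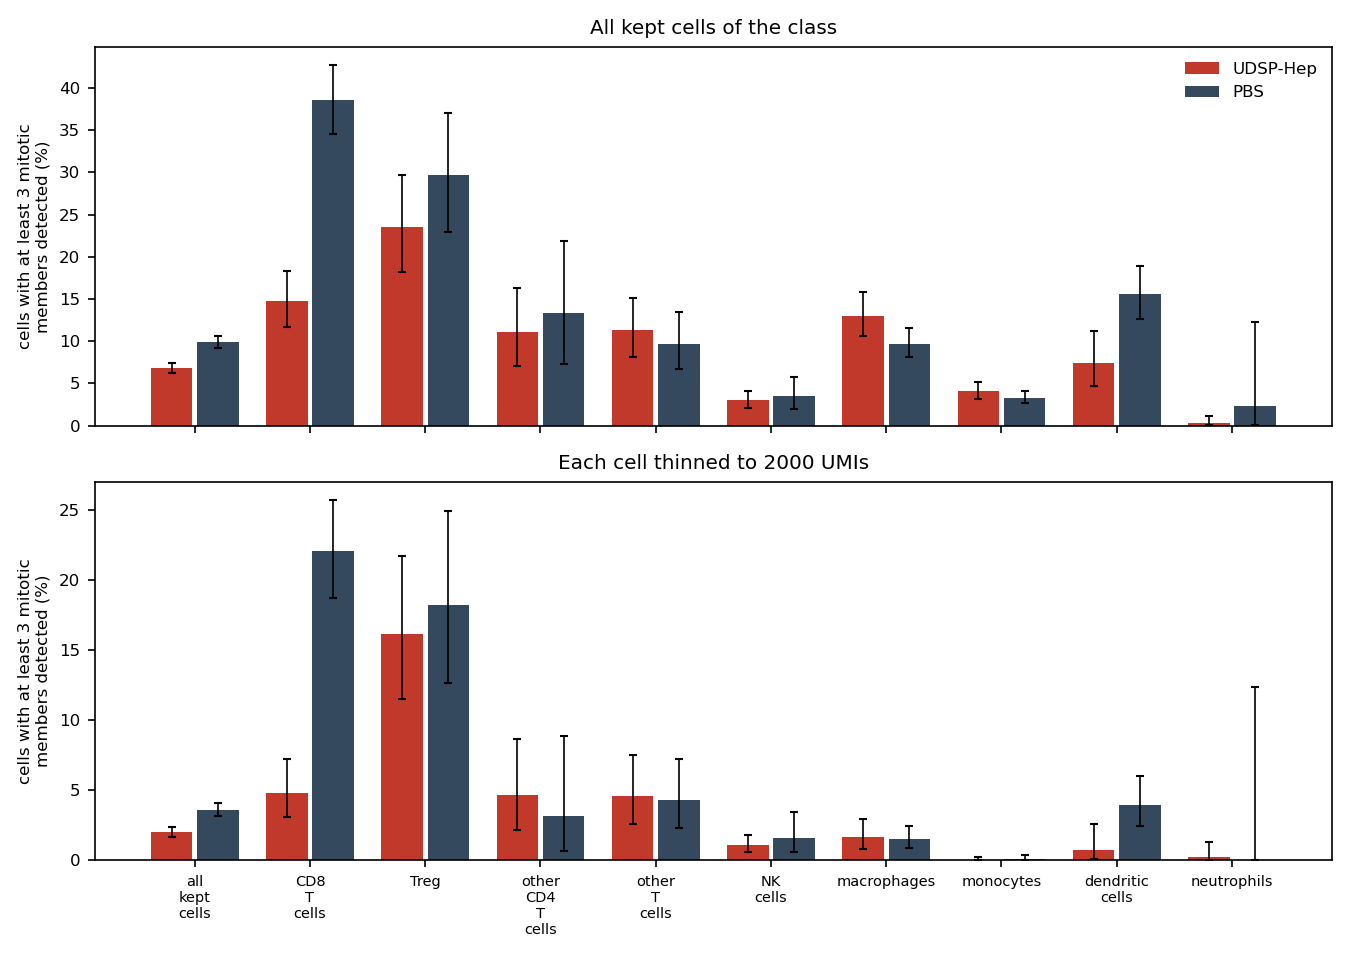
Share of cells with UMIs of at least 3 mitotic members (percent, bars) in each leukocyte class, in UDSP-Hep (red, left) and PBS (blue, right), with exact binomial 95% intervals, for all kept cells (top) and after thinning each cell to 2000 UMIs (bottom). CD8 T cells stand at 14.7% in UDSP-Hep and 38.6% in PBS before thinning and at 4.82% and 22.1% after it, while the intervals of Treg overlap in both panels.

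The classes differed in direction. CD8 T cells had 69 of 468 cycling cells in UDSP-Hep (14.7%, 11.7 to 18.3) and 218 of 565 in PBS (38.6%, 34.5 to 42.7), a ratio of 0.382 (0.300 to 0.486). Dendritic cells, without the plasmacytoid ones, had 21 of 281 in UDSP-Hep (7.47%) and 84 of 539 in PBS (15.6%). Their ratio was 0.480 (0.304 to 0.757). In these 2 classes the intervals of the libraries did not overlap. Treg had 53 of 225 in UDSP-Hep (23.6%) and 51 of 172 in PBS (29.7%), a ratio of 0.794 (0.572 to 1.10), and NK cells had 39 of 1310 (2.98%) and 14 of 400 (3.5%), a ratio of 0.851 (0.467 to 1.55). For Treg and NK cells a ratio of 1 lay inside the interval. Macrophages stood the other way, with 89 of 683 in UDSP-Hep (13%) and 115 of 1185 in PBS (9.70%), a ratio of 1.34 (1.04 to 1.74). That ratio was 1.09 (0.515 to 2.32) after thinning to 2000 UMIs, with shares of 1.67% in UDSP-Hep and 1.53% in PBS, and 0.963 (0.512 to 1.81) after thinning to 4000 UMIs, and macrophages were deeper in UDSP-Hep (median 12925 UMIs) than in PBS (10086). Monocytes had 65 of 1596 in UDSP-Hep (4.07%) and 85 of 2569 in PBS (3.31%), a ratio of 1.23 (0.897 to 1.69).

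Thinning kept the order in CD8 T cells and dendritic cells and left almost nothing in monocytes. CD8 T cells, whose medians were 5557.5 UMIs in UDSP-Hep and 8252 in PBS, had 22 of 456 cells in UDSP-Hep (4.82%) and 124 of 562 in PBS (22.1%) past the count at 2000 UMIs, a ratio of 0.219 (0.141 to 0.338), with 12 and 3 shallower cells left out. Dendritic cells had 2 of 278 (0.719%) and 21 of 530 (3.96%) in the same order. Most of those in PBS were type 1 dendritic cells (cDC1), with 1 of 21 cells in UDSP-Hep and 18 of 98 in PBS. Type 2 cells (cDC2) had 1 of 200 in UDSP-Hep and 3 of 249 in PBS, and mature dendritic cells 0 of 57 and 0 of 183. Treg had 16.1% in UDSP-Hep and 18.2% in PBS, and NK cells 1.06% and 1.61%. Thinned monocytes had 0 of 1563 in UDSP-Hep, which allows a share of up to 0.192% by a limit of 3 counts (0.236% by the exact binomial interval), and 3 of 2509 in PBS (0.120%), at or below the level of thinned neutrophils in UDSP-Hep.

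The make-up of the libraries also differed: CD8 T cells were 6.5% of kept cells in UDSP-Hep and 8.41% in PBS, NK cells 18.2% and 5.96%. The share of all cycling cells that were CD8 T cells was 14.1% in UDSP-Hep and 32.7% in PBS, and that of dendritic cells 4.29% and 12.6%. Weighting the UDSP-Hep shares of each class by the PBS make-up gave 7.93% cycling cells, and weighting the PBS shares by the UDSP-Hep make-up gave 8.57%. Both lay between the observed 6.81% in UDSP-Hep and 9.92% in PBS.

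In CD8 T cells, all but 4 of the 52 members were lower in UDSP-Hep. The count was 48 lower and 1 higher, beside 10.5% lower and 14.6% higher among all 10833 genes tested, and the median log2 ratio was −1.29 for the members and 0.05 for all genes. Summed over the group, the mitotic members had 892 CPM in UDSP-Hep and 2349 in PBS (ratio 0.380, 0.365 to 0.394), and all 27 were lower. The replication members had 1387 CPM in UDSP-Hep and 2759 in PBS (0.503, 0.487 to 0.519), and 15 of 17 were lower. The G1 entry group had 217 CPM in UDSP-Hep and 328 in PBS, with 3 of 5 lower and 1 higher.

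Among the mitotic members in CD8 T cells, Top2a, the topoisomerase that untangles sister chromatids, had 535 UMIs in UDSP-Hep and 2350 in PBS, or 153 and 362 CPM (ratio 0.421, 0.383 to 0.463). Cenpa, the histone variant of centromeres, had 131 CPM in UDSP-Hep and 252 in PBS (0.518). The ratio furthest below 1 by its interval was that of Cenpf, a kinetochore protein, with 20.5 CPM in UDSP-Hep and 78.8 in PBS (0.261, 0.201 to 0.334). The others ranged from 0.278 for Prc1, which bundles midzone microtubules, to 0.593 for Cks2.

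Of the replication members, Pcna, the sliding clamp, had 269 CPM in UDSP-Hep and 439 in PBS (0.613, 0.569 to 0.660), and Pclaf, a Pcna-binding factor, had 176 and 459 CPM (0.384). The 6 Mcm helicase subunits lay between 0.520 for Mcm5 and 0.70 for Mcm4. Of the nucleotide supply enzymes, Tyms (0.302), Tk1 (0.332), Dut (0.351) and Rrm1 (0.471) lay below that range, and Rrm2 (0.544) lay within it. Mcm4 and Cdt1 were the 2 replication members that did not pass the fold. Cdt1 had 62.2 CPM in UDSP-Hep and 61.7 in PBS (1.01, 0.851 to 1.19).

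Of the G1 genes, Cdk6, the kinase partner of D cyclins, had 163 CPM in UDSP-Hep and 248 in PBS (0.654), and the transcription factor E2f1 had 22.5 and 30.9 CPM (0.730). Cyclin D1, Ccnd1, was the 1 higher member, on 22 UMIs in UDSP-Hep and 9 in PBS, or 6.28 and 1.39 CPM (4.52, 2.0 to 11.2), and its log2 ratio was −0.16 when the removed doublets were put back. Of the members listed as broadly expressed, the chromatin protein Hmgb2 had 1068 CPM in UDSP-Hep and 2122 in PBS (0.503). Stathmin, Stmn1, which destabilizes microtubules, had 151 CPM in UDSP-Hep and 416 in PBS (0.363), and Cks1b, a CDK-binding subunit, had 38.8 and 131 CPM (0.296).

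**Figure D2:**
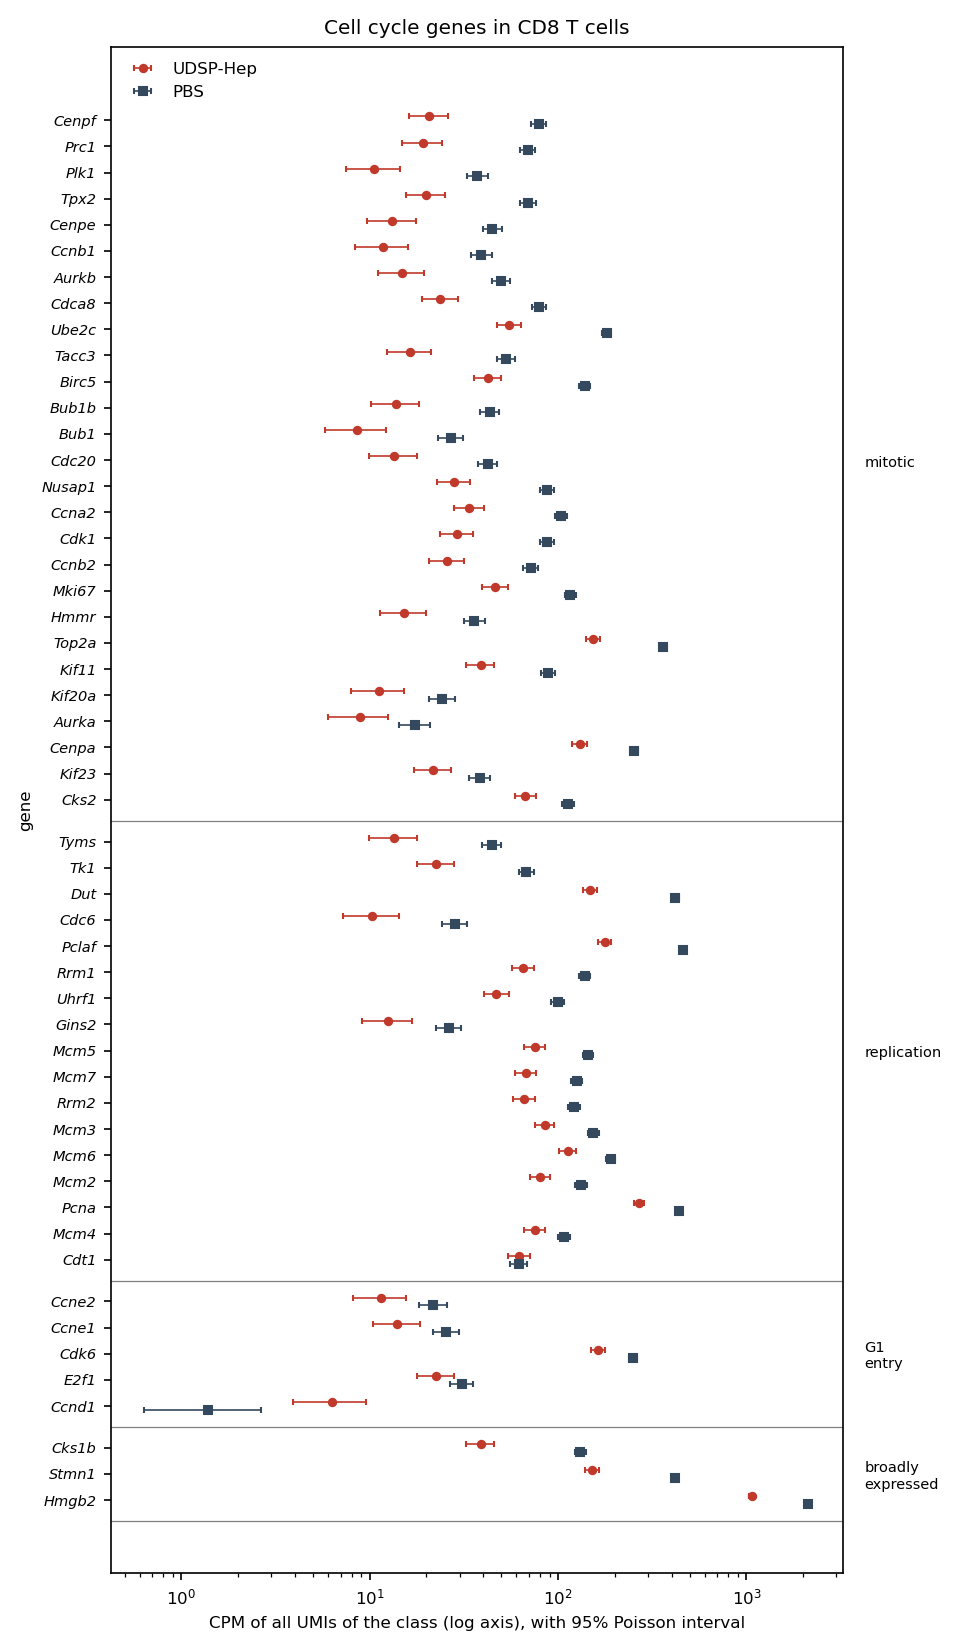
CPM (log axis, 95% Poisson intervals) of the 52 cell cycle genes in CD8 T cells of the UDSP-Hep library (red circles) and the PBS library (blue squares), by role and, within a role, by ratio. All 27 mitotic genes lie to the left in UDSP-Hep, Cdt1 coincides at 62.2 and 61.7 CPM, and Ccnd1 alone lies clearly to the right.

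Outside the 52, the replication, mitotic and transcription factor lists showed the same direction in CD8 T cells, beside 10.5% lower among all genes. Of 25 other replication genes, 22 were lower and 0 higher, with a median log2 ratio of −0.96. Of 38 other mitotic genes, 35 were lower and 0 higher, with a median of −1.12. Of 7 transcription factors of the programme, 5 were lower and 0 higher. The G1 and inhibitor lists were mixed. Of 7 other G1 genes, 2 were lower and 2 higher. Of 8 CDK inhibitors and pocket proteins with enough UMIs, 1 was lower and 2 higher. The 5 anti-proliferative genes, Btg1, Btg2, Tob1, Tob2 and Klf2, were all higher, with a median of 1.07, beside 14.6% higher among all genes. This was not particular to CD8 T cells. All 5 had ratios above 1 in Treg, other CD4 T cells, NK cells, macrophages, monocytes and dendritic cells too. In other CD4 T cells, where 17 members were higher, their median was 0.58. In nonclassical monocytes 2 were above 1 and 3 below. Macrophage markers, 7 genes, summed to 234 CPM in these UDSP-Hep cells and 157 CPM in PBS, and neutrophil markers to 49.6 and 19.7 CPM, and their part in the result was not tested. Among CD8 T cells without a UMI of C1qa, C1qb or C1qc, 42 of 384 were cycling in UDSP-Hep (10.9%) and 155 of 456 in PBS (34.0%), a ratio of 0.322 (0.235 to 0.440).

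The cycling CD8 T cells themselves differed between the libraries in how many mitotic genes they showed. The median was 4 mitotic members per cycling cell in UDSP-Hep and 11 in PBS. Exactly 3 members were found in 25 of the 69 cells in UDSP-Hep and 30 of the 218 in PBS, while a further 62 and 78 cells had 2 and fell just short. Cycling cells were deeper than other CD8 T cells, with medians of 14866 and 5097 UMIs in UDSP-Hep and of 16230.5 and 6408 in PBS. Mitotic UMIs, which chose these cells, summed to 2345 CPM in UDSP-Hep and 3681 in PBS. Replication UMIs, which did not, summed to 2933 and 3944 CPM (0.744, 0.716 to 0.772). In the other CD8 T cells the replication sum was 611 CPM in UDSP-Hep and 815 in PBS (0.749, 0.70 to 0.802). At least 3 replication members were found in 48.7% of CD8 T cells in UDSP-Hep and 66.2% in PBS. Macrophage markers reached 432 CPM in the cycling cells of UDSP-Hep and 148 in those of PBS, against 135 and 173 in the other cells, and their part was not tested.

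**Figure D3:**
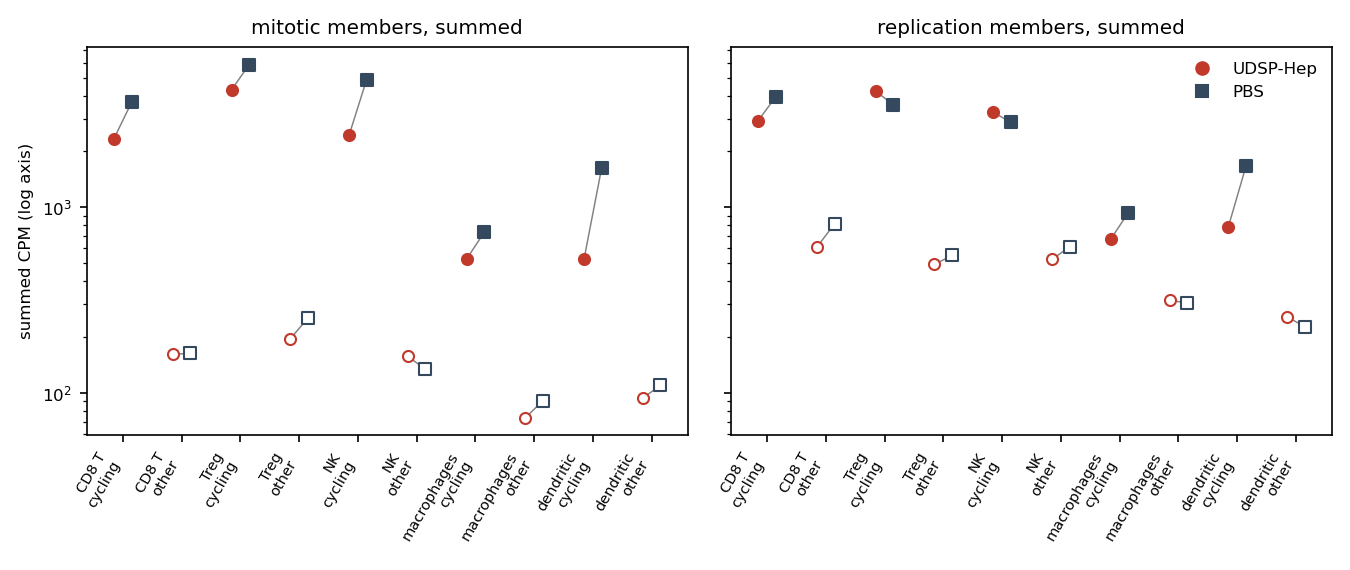
Summed CPM (log axis) of the 27 mitotic genes (left) and the 17 replication genes (right) in cycling cells (filled) and other cells (open) of 5 classes, in UDSP-Hep (red circles) and PBS (blue squares), joined by lines. The replication sum in cycling cells is lower in UDSP-Hep for CD8 T cells (2933 against 3944), macrophages (674 against 937) and dendritic cells (783 against 1662) and higher for Treg (4234 against 3555) and NK cells (3256 against 2865).

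Within each library, cycling CD8 T cells carried the rest of the programme. Over 1.5-fold higher in cycling than in other cells were 22 of 23 other replication genes with enough UMIs in UDSP-Hep and 25 of 25 in PBS, and 30 of 32 and 37 of 38 other mitotic genes. Among all genes, 18.5% were higher and 17.2% lower in UDSP-Hep, and 16.8% higher and 16.5% lower in PBS. Foxm1, the activator of mitotic genes, had 29.9 CPM in cycling and 1.29 CPM in other cells of UDSP-Hep, and 37.5 and 1.63 CPM in PBS. Mybl2, which encodes B-Myb, had 30.7 and 1.29 CPM in UDSP-Hep and 36.2 and 2.04 CPM in PBS. The repressors E2f7 and E2f8 had 39 and 44 UMIs in cycling cells of UDSP-Hep and 0 in its other cells, and in PBS 141 and 201 UMIs in cycling against 1 and 2 in other cells.

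The CDK inhibitors differed in direction. Cdkn2c, which encodes p18, was higher in cycling CD8 T cells, at 3.38 times the level of other cells in UDSP-Hep and 3.08 times in PBS. Cdkn1a, which encodes p21, was also higher, 2.95 times in UDSP-Hep (221 against 75.0 CPM) and 1.71 times in PBS (58.6 against 34.2 CPM). Cdkn1b, which encodes p27, was lower in cycling cells, 0.579 times in UDSP-Hep and 0.617 times in PBS. Of the other D cyclins, Ccnd2 was 0.643 and Ccnd3 0.683 times as high in cycling cells of UDSP-Hep, and 0.522 and 0.615 times in PBS. Btg1, an anti-proliferative gene, was 0.490 times as high in UDSP-Hep and 0.423 times in PBS. Myc, a growth-promoting factor, stood at 0.607 (0.443 to 0.820) in UDSP-Hep and 1.07 (0.898 to 1.28) in PBS, and the difference between these ratios was not tested.

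In Treg, mitotic and replication members separated. The mitotic sum was 2011 CPM in UDSP-Hep and 3179 in PBS (0.632, 0.606 to 0.660), and 19 of 27 mitotic members were lower and 0 higher. The replication sum was 2149 CPM in UDSP-Hep and 2116 in PBS (1.02, 0.970 to 1.06), with 1 of 17 lower and 1 higher. Few cells carry the mitotic sum: 53 cycling Treg held 3731 of 3945 mitotic UMIs in UDSP-Hep, and 51 held 4623 of 4806 in PBS. As in every class, intervals of sums and genes treat UMIs of the same cell as independent and are too narrow for that reason. The cycling share, counted by cells, had a ratio interval of 0.572 to 1.10. In all, 21 members were lower and 2 higher, beside 7.69% lower and 9.65% higher among all 9418 genes tested. Median log2 ratios were −0.72 for mitotic and 0.26 for replication members, against 0.02 for all genes. Macrophage markers summed to 189 CPM in Treg of UDSP-Hep and 400 in those of PBS, cDC2 markers, 5 genes, to 62.2 and 11.2 CPM, and neutrophil markers to 69.8 and 28.4 CPM, and their part was not tested.

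Cdc20, the activator of the anaphase-promoting complex, had 24.0 CPM in UDSP-Hep Treg and 70.8 in PBS Treg (0.338, 0.235 to 0.481), and Cenpf had 45.4 and 124 CPM (0.367). Top2a, at 369 and 446 CPM (0.827), and Cdk1, the kinase that drives mitosis, at 82.1 and 99.2 CPM (0.827), did not pass the fold. Cdc6, a helicase loader, had 58 UMIs in UDSP-Hep and 18 in PBS, or 29.6 and 11.9 CPM (2.48, 1.44 to 4.48), and E2f1 had 52 and 18 UMIs (2.23, 1.28 to 4.04). With classes taken from clusters, the log2 ratio of E2f1 was −0.064, and after thinning that of Cdc6 was 0.19. Of the helicase subunits, Mcm5 had 139 CPM in UDSP-Hep and 95.3 in PBS (1.46), Mcm4 had 106 and 76.7 (1.37), and Mcm6 had 166 and 182 (0.913). Cdk6 had 317 CPM in UDSP-Hep and 271 in PBS (1.17), and Pclaf had 323 and 415 (0.778). Cycling Treg had a median of 14 mitotic members in UDSP-Hep and 21 in PBS, and their replication sum was 4234 and 3555 CPM (1.19, 1.13 to 1.25). Among the genes outside the 52, 15 of 38 other mitotic genes were lower and 0 higher, and 4 of 24 other replication genes were lower and 0 higher. Cycling over other Treg, 35 of 36 other mitotic genes were higher in each library, beside 18.3% of all genes in UDSP-Hep and 19.3% in PBS.

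The other T cells had few lower members. In other CD4 T cells, 46 members had enough UMIs, of which 17 were higher and 2 lower, beside 16.1% higher and 7.72% lower among all 7964 genes tested. The mitotic sum was 1094 CPM in UDSP-Hep and 634 in PBS (1.72), on 1260 and 370 UMIs, and the cycling shares were 22 of 199 (11.1%) and 13 of 97 (13.4%). The sum was thus higher in UDSP-Hep while the share was not, in a class with few cycling cells. Intervals of its genes also treat UMIs of the same cell as independent. Cdc20 had 33 UMIs in UDSP-Hep and 1 in PBS, a ratio of 16.7 whose interval ran from 2.80 to 680, and Hmmr, a spindle-associated protein, had 23 and 1 (11.6, 1.89 to 480). Ccnd1 had 5 UMIs in UDSP-Hep and 34 in PBS (0.0745), and Cdk6 had 145 and 233 CPM (0.622). In T cells outside these 3 classes, 2 of 51 members were higher and 3 lower, beside 8.5% higher and 5.34% lower among all genes, and 39 of 345 cells in UDSP-Hep (11.3%) and 31 of 319 in PBS (9.72%) were cycling. Over all T cells combined, 33 of 52 members were lower and 0 higher, beside 6.68% lower and 11.3% higher among all genes.

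In NK cells the share of cycling cells was low in both libraries, yet the mitotic sum was 314 CPM in UDSP-Hep and 565 in PBS (0.556, 0.515 to 0.60). Of 51 members with enough UMIs, 28 were lower and 1 higher, beside 5.44% lower and 9.07% higher among all 10245 genes tested. The lower ones were 20 of 26 mitotic and 5 of 17 replication members, 2 of the G1 group and Cks1b. Cenpf had 14 UMIs in UDSP-Hep and 48 in PBS (0.0937, 0.0477 to 0.173), and Ube2c had 37 and 70 (0.17). Cdk6 had 73.1 CPM in UDSP-Hep and 143 in PBS (0.511, 0.438 to 0.597). The G1 group summed to 434 UMIs in the other NK cells of UDSP-Hep and 109 in the cycling ones, and to 266 and 46 in PBS. Cenpa, at 86.1 CPM in UDSP-Hep and 87.7 in PBS (0.981), and Pcna, at 189 and 197 (0.961), were close to 1, and Cdt1 stood at 55.7 and 41.5 CPM (1.34). Macrophage markers summed to 286 CPM in cycling NK cells of UDSP-Hep and 46.3 in those of PBS, against 67.0 and 54.9 CPM in other NK cells. Neutrophil markers summed to 61.8 CPM in NK cells of UDSP-Hep and 7.88 in those of PBS, and the part of either list was not tested. The count and the mitotic sum rest on few cells, 39 cycling in UDSP-Hep and 14 in PBS. These held 991 of the 1860 mitotic UMIs of NK cells in UDSP-Hep and 843 of 1075 in PBS. The interval of the sum treats UMIs of the same cell as independent. In the other NK cells the mitotic sum was 157 CPM in UDSP-Hep and 134 in PBS (1.17, 1.02 to 1.36). After thinning to 2000 UMIs, 3 members were lower and the median log2 ratio was −0.085 in place of −0.64.

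In macrophages, 15 of 52 members were lower and 1 higher, beside 5.99% lower and 12.3% higher among all 11650 genes tested. The mitotic sum was 184 CPM in UDSP-Hep and 218 in PBS (0.841, 0.795 to 0.891) and the replication sum 403 and 430 CPM (0.938). Nusap1, a spindle microtubule protein, was the higher one, on 40 UMIs in UDSP-Hep and 32 in PBS (1.76, 1.08 to 2.90). Plk1 had 9 and 38 UMIs (0.334, 0.142 to 0.703) and Stmn1 26.8 and 43.3 CPM (0.617). Cenpa had 32.7 CPM in UDSP-Hep and 52 in PBS (0.628), Cks2 26.8 and 20.5 CPM (1.31), and Ccnd1, which responds to growth factors, 83.4 and 96.8 CPM (0.861). The CPM of the mitotic set was thus lower in UDSP-Hep while the unthinned share of cycling cells was higher. Cycling macrophages had a median of 4 mitotic members in both libraries, and 41 of 89 in UDSP-Hep and 49 of 115 in PBS had exactly 3. Their replication sum was 674 CPM in UDSP-Hep and 937 in PBS (0.720, 0.677 to 0.765). The 6 T cell markers summed to 268 CPM in cycling macrophages of UDSP-Hep and 159 in those of PBS, against 104 and 48.1 CPM in other macrophages. In the whole class, neutrophil markers summed to 626 CPM in UDSP-Hep and 109 in PBS, and NK cell markers, 6 genes, to 45.5 and 9.82 CPM, and the part of these lists was not tested. Without cells that held a UMI of the T cell markers, 47 of 466 macrophages were cycling in UDSP-Hep (10.1%) and 73 of 960 in PBS (7.60%), a ratio of 1.33 (0.935 to 1.88). In cycling over other macrophages, 16 of 20 other mitotic genes were higher in UDSP-Hep and 28 of 31 in PBS, beside 9.74% of all genes higher and 4.92% lower in UDSP-Hep, and 16.2% higher and 8.05% lower in PBS. In monocytes and macrophages combined, the nonclassical monocytes included, 9 of 52 members were lower and 1 higher, beside 5.54% lower and 12.1% higher among all genes.

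In monocytes, 44 members had enough UMIs, of which 8 were higher and 3 lower, beside 11.1% higher and 4.77% lower among all 11703 genes tested. Another scaling, by the median of ratios, moved the median of all genes in monocytes by 0.14 on the log2 scale, and by 0.11 in all kept cells, and the members' median log2 ratio in monocytes was itself 0.14. Cks2 had 58.7 CPM in UDSP-Hep and 36.6 in PBS (1.60, 1.46 to 1.76), and E2f1 13.5 and 7.68 CPM (1.76, 1.43 to 2.16). Cenpa had 25.4 CPM in UDSP-Hep and 42.6 in PBS (0.597) and Cdk6 38.2 and 55.3 CPM (0.692, 0.626 to 0.763), which did not pass the fold. Of the cells past the count of 3 mitotic members, 52 of 65 in UDSP-Hep and 61 of 85 in PBS had exactly 3. In these cells only 5 of 15 other mitotic genes in UDSP-Hep and 6 of 14 in PBS were higher than in other monocytes, beside 12.8% of all genes higher and 10.8% lower in UDSP-Hep, and 15.3% higher and 8.72% lower in PBS. Nonclassical monocytes had 17 members with enough UMIs, of which 3 were higher and 2 lower, beside 16.5% higher and 6.26% lower among all genes. Neutrophil markers summed to 1429 CPM in the monocytes past the count in UDSP-Hep and 121 in those of PBS, against 331 and 192 CPM in other monocytes, and their part was not tested.

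Dendritic cells resembled CD8 T cells in direction. Of the 52 members, 45 were lower and 0 higher, beside 9.12% lower and 9.8% higher among all 10873 genes tested, with a median log2 ratio of −1.88 for the members and 0.04 for all genes. The mitotic sum was 152 CPM in UDSP-Hep and 508 in PBS (0.300, 0.275 to 0.327), the replication sum 328 and 602 CPM (0.546, 0.513 to 0.580). Ube2c had 14 UMIs in UDSP-Hep and 344 in PBS (0.0905, 0.0490 to 0.154), Top2a 37 and 607 (0.136), and Pclaf 62 and 750 (0.184). Of the 5 G1 members, E2f1 (0.662), Ccne1 (0.510) and Ccne2 (0.318) were lower and 0 were higher. Their sum was nevertheless 429 CPM in UDSP-Hep and 371 in PBS (1.16, 1.09 to 1.22), since most of it was Ccnd1, with 372 and 311 CPM (1.19). Cdk6 had 43.6 CPM in UDSP-Hep and 36.0 in PBS (1.21) and Pcna 111 and 127 CPM (0.873), and neither passed the fold, nor did Ccnd1. Neutrophil markers summed to 144 CPM in dendritic cells of UDSP-Hep and 22.3 in those of PBS, and macrophage markers to 380 and 268 CPM, and their part was not tested. Outside the 52, 34 of 36 other mitotic and 20 of 25 other replication genes were lower and 0 higher in either list.

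The dendritic classes differed in size and in cycling cells. Type 1 dendritic cells (cDC1), which present antigen to CD8 T cells, held 2 cycling of 21 cells in UDSP-Hep and 43 of 99 in PBS (43.4%), and were 43 of the 84 cycling dendritic cells in PBS. They held 106 of the 612 mitotic UMIs of dendritic cells in UDSP-Hep and 3173 of 4534 in PBS. The part of this make-up in the lower sums of dendritic cells was not tested. Type 2 cells (cDC2) had 14 of 201 in UDSP-Hep (6.97%) and 30 of 251 in PBS (12.0%), a ratio of 0.583 (0.318 to 1.07), and 19 of 41 members were lower and 0 higher, beside 5.39% lower and 8.66% higher among all genes. Mature dendritic cells had 5 of 59 in UDSP-Hep (8.47%) and 11 of 189 in PBS (5.82%), and 5 of 19 members with enough UMIs were higher and 1 lower, beside 16.4% higher and 8.75% lower among all genes. The mitotic sum of cDC1 was 309 CPM in UDSP-Hep and 1227 in PBS (0.252), and that of cDC2 131 and 258 CPM (0.506). Mature cells had 163 CPM in UDSP-Hep and 148 in PBS (1.11, 0.899 to 1.35). T cell markers summed to 509 CPM in cycling dendritic cells of UDSP-Hep and 97.0 in those of PBS, against 36.9 and 40 CPM in other dendritic cells, and their part was not tested. Without cells that held a UMI of those markers, 9 of 225 dendritic cells were cycling in UDSP-Hep (4.0%) and 51 of 439 in PBS (11.6%), a ratio of 0.344 (0.173 to 0.687).

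**Figure D4:**
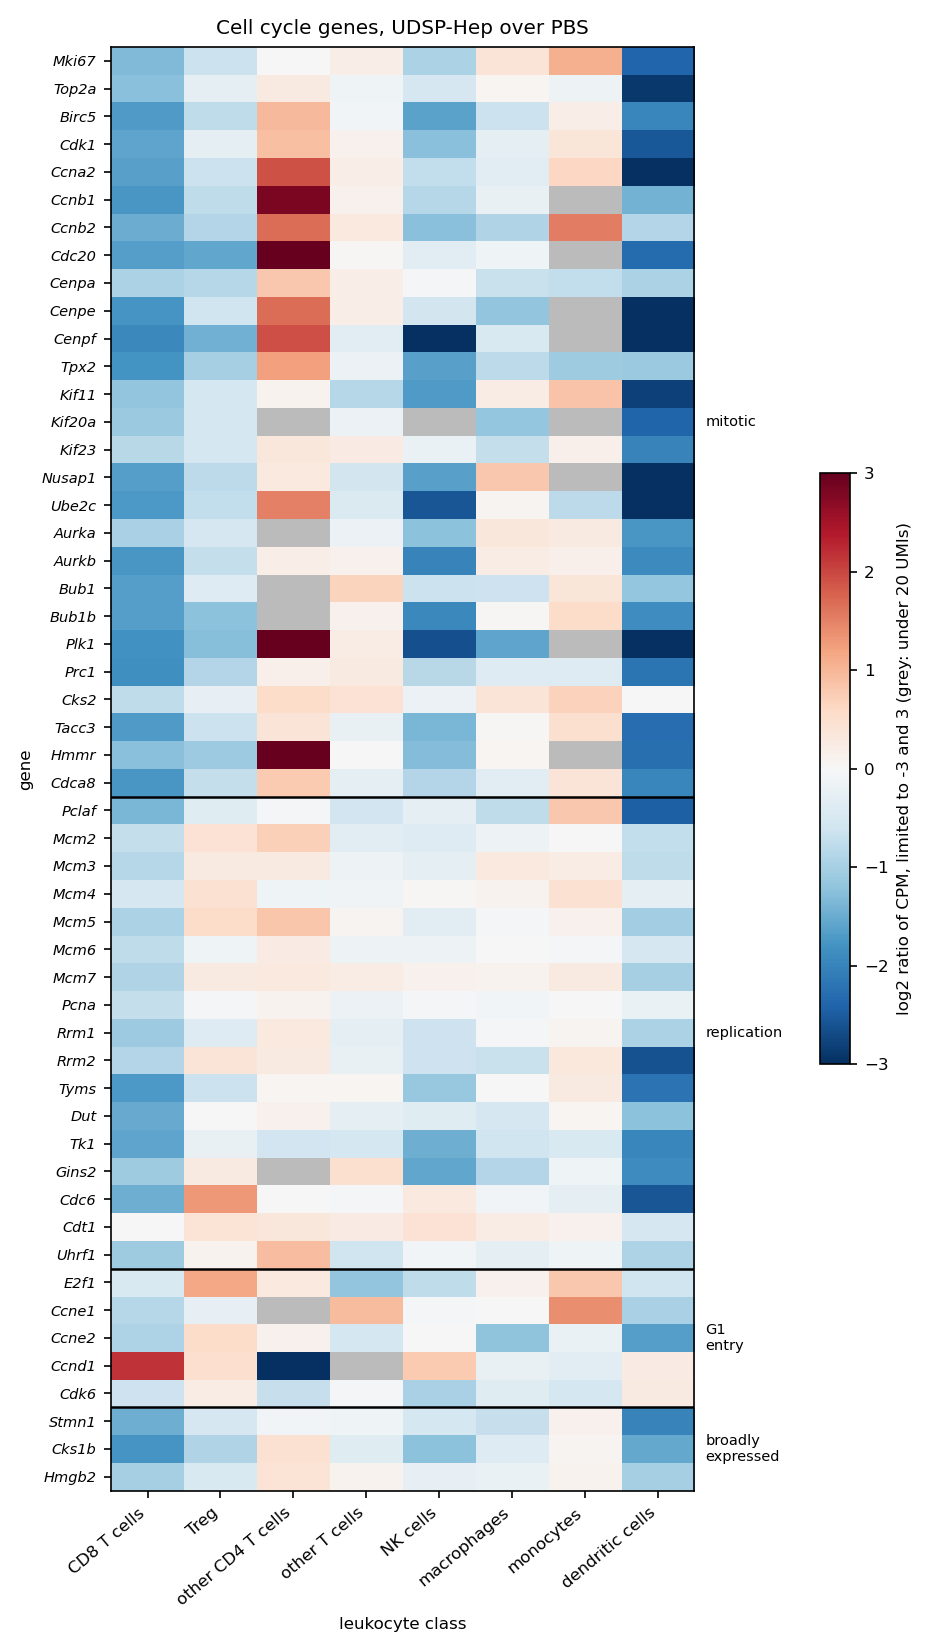
Log2 CPM ratio, UDSP-Hep over PBS, of the 52 cell cycle genes (rows, by role) in 8 leukocyte classes (columns), blue where lower and red where higher in UDSP-Hep, limited to −3 and 3, grey under 20 UMIs. CD8 T cells and dendritic cells are blue over nearly all rows (48 and 45 genes past 1.5-fold). In Treg and NK cells the genes lower past 1.5-fold are mainly mitotic (19 and 20 genes), while NK cells are below a ratio of 1 in 45 of 51 genes. Other CD4 T cells are above 1 in 39 of 46 genes, 17 of them past 1.5-fold.

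Some members were common in cells that showed neither phase. Cells with under 3 mitotic and under 3 replication members, quiet cells below, were 74.7% of kept cells in UDSP-Hep and 72.3% in PBS. The 5 members with the largest share of their UMIs in quiet cells were Cks2 (55.4% in UDSP-Hep and 41.9% in PBS), Ccnd1 (45.5% and 42.5%), Cdk6 (46.0% and 40.4%), Hmgb2 (44.4% and 32.7%) and Pcna (40.1% and 35.5%). At the other end, Pclaf had 1.04% of its UMIs in quiet cells in UDSP-Hep and 0.429% in PBS, and Cenpf 1.97% and 0.982%. Although listed as broadly expressed, Stmn1 had only 9.64% of its UMIs in quiet cells in UDSP-Hep and 4.13% in PBS, and Cks1b 20.6% and 11.2%. Mitotic and replication members take part in the definition of quiet cells, so their shares describe the definition too, while Ccnd1, Cdk6 and Hmgb2 do not enter it.

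**Figure D5:**
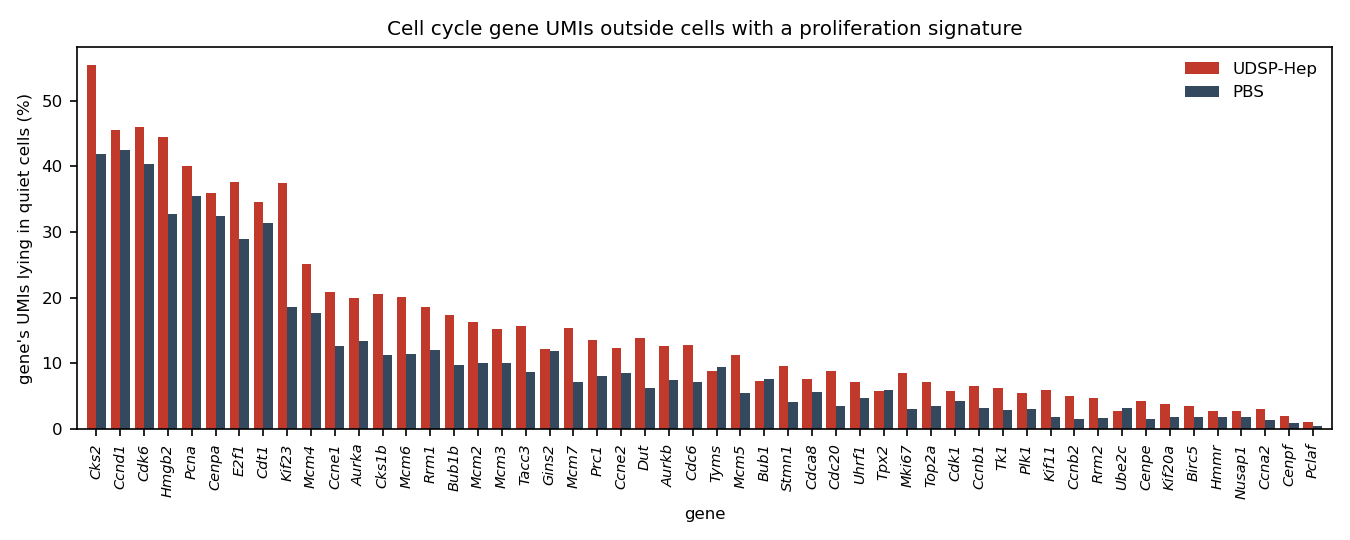
Share of each gene's UMIs (percent, bars) that lay in cells with under 3 mitotic and under 3 replication members, in UDSP-Hep (red, left) and PBS (blue, right), ordered by the mean of both. Cks2, Ccnd1, Cdk6, Hmgb2 and Pcna lie at 32.7% or above in both libraries, and Pclaf lies lowest at 1.04% and 0.429%.

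The members also came from different leukocytes. CD8 T cells held 24.7% of Pclaf UMIs in UDSP-Hep and 53.2% in PBS, and 22.9% and 58.9% of Dut UMIs. Ccnd1 had 0.571% of its UMIs in CD8 T cells in UDSP-Hep and 0.133% in PBS. Dendritic cells, here cDC1, cDC2 and mature cells, held 38.7% of Ccnd1 UMIs in UDSP-Hep and 40.9% in PBS. They were 3.91% and 8.02% of kept cells. Of all kept UMIs they carried 4013459 of 55744612 in UDSP-Hep and 8924610 of 66052583 in PBS. Plasmacytoid dendritic cells, a class apart, had 278 Ccnd1 UMIs in UDSP-Hep and 497 in PBS (855 and 611 CPM). Monocytes and macrophages held 39.9% and 39.4% of Ccnd1 UMIs. Of E2f1 UMIs, monocytes and macrophages held 57.1% in UDSP-Hep and 48.9% in PBS. These cells, the nonclassical monocytes included, were themselves 37.0% of kept cells in UDSP-Hep and 57.3% in PBS. They carried 28041313 of all 55744612 kept UMIs in UDSP-Hep and 38647179 of 66052583 in PBS.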

How the data were processed

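Single-cell RNA was measured in CD45+ cells of B16F10-OVA tumours, 1 library of 3 pooled tumours per group. The deposited matrices hold raw UMI counts per gene and barcode from Cell Ranger 7.0.0 (per the file headers), with mm10 as the build. The build and a mention of Seurat, whose role is not given, are known per the submitters' processing notes. The 52 members and all gene lists were chosen with earlier results of these data known. From the counts, barcodes with at least 500 UMIs, 200 genes and under 10% mitochondrial UMIs were kept (Python 3.11.15, scanpy 1.11.5, scipy 1.17.1). Scrublet's own threshold marked 0% and 0.0138% of cells in UDSP-Hep and PBS, so the highest scores were removed at 0.8% per 1000 barcodes, 480 and 417 cells, of which 27.5% and 35.0% held at least 3 mitotic members. Each cell went to the class with the highest mean marker score if at least 2 of its markers were detected and the score led by 0.1, except that only the highest score was needed among phagocyte and dendritic classes. T cells were split by UMIs of Cd8a or Cd8b1, Cd4 and Foxp3, which are found more often in deeper cells. UMIs were summed per class and library. Shares have exact binomial intervals, share ratios Katz log intervals and CPM exact Poisson intervals, at 95%, for counting error only. Intervals of CPM and of CPM ratios treat UMIs of the same cell as independent. The scripts were tested on simulated data with independent counts, a setting that does not cover UMIs gathered in few cells. Members named follow a fixed rule: per class, the 2 members with most UMIs in each role, the 2 whose interval lay furthest from 1 in each direction, and the 5 commonest in quiet cells. Single genes named outside the 52 were picked from the gene lists without such a rule. Other members named to show a range, and cDC1 with under 50 cells, were chosen after their values were seen. Alternatives were other count minimums, thinning to 2000 or 4000 UMIs, another scaling, per-cell means, no filter, doublets kept, another mitochondrial limit and clusters. Positions and promoters come from GENCODE M21 and RefSeq, both on GRCm38.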

Additional observations from a re-analysis of the deposited data

Results flagged for a closer look

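The cycling share differed in direction between leukocyte classes under the same contrast. The log2 ratio of the share, UDSP-Hep over PBS, was −1.39 in CD8 T cells and 0.43 in macrophages, a difference of −1.81. In dendritic cells it was −1.06, which differed from macrophages by −1.49. Neither difference was tested, since each group is 1 library. The direction in macrophages was not kept after thinning to 4000 UMIs or with classes taken from clusters, while both other classes stayed below 0 under these settings.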

How the results depend on the processing

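No paired analysis was possible because each group is 1 library. All values here are log2 ratios, UDSP-Hep over PBS, or counts of members. Thinning was to 2000 UMIs unless given. For the cycling share of all kept cells, at least 2 mitotic members gave −0.21, at least 5 gave −0.94 and thinning −0.84, beside −0.54. For CD8 T cells these were −0.90, −2.16 and −2.19, beside −1.39, and for dendritic cells 2 members gave −0.27, thinning −2.46 and thinning to 4000 −2.18, beside −1.06. The macrophage share, 0.43, turned to −0.055 after thinning to 4000 and to −0.062 with classes from clusters, and the monocyte share, 0.30, was 0.77 with clusters and had no ratio when thinned, as no UDSP-Hep cell passed. Treg stayed between −0.42 and −0.12, and NK cells ranged from −0.93 to 0.46. The members' median in CD8 T cells, −1.29, was −1.34 with median-of-ratios scaling, −1.61 with per-cell means, −1.74 thinned and −1.17 with clusters, with 33 to 48 members lower, and 0 were higher when thinned or with doublets kept. In NK cells the median, −0.64, was −0.69 with that scaling and with no filter, −0.40 with per-cell means, −0.085 thinned and −0.29 with clusters. Lower members there were 3 thinned, 14 with clusters and 18 at a fold of 2, and 0 were higher in each. In macrophages the median, −0.21, was −0.31 with that scaling, 0.019 with per-cell means and −0.45 with clusters. Members higher and lower there were 5 and 5 with per-cell means, 3 and 6 thinned, 0 and 4 at a fold of 2, and 0 were higher with clusters. Of 377 values of single genes, 63 came from the setting with no filter, which cannot change a single gene's ratio, and all 63 stayed. With these included, 297 stayed within their interval, 67 moved beyond it and 13 changed sign where the main interval excluded 0. Sign changes where that interval held 0 are counted among the 297 or the 67. With per-cell means, those of the 13 were Hmgb2 in NK cells (0.053), Ccnd1 (0.017) and Cdt1 (−0.063) in macrophages and Pcna in dendritic cells (0.079). Thinned, they were Cdt1 in macrophages (−0.34), Pclaf in Treg (0.11) and Pcna in dendritic cells (0.41). With clusters, they were Top2a in NK cells (0.10), E2f1 in Treg (−0.064), and Hmgb2 (−0.023) and Ccnd1 (0.082) in monocytes. Ccnd1 in CD8 T cells with doublets kept (−0.16) and Hmgb2 in monocytes with median-of-ratios scaling (−0.040) were the others. The cause was not tested. Few cycling cells, as in NK cells, and depth limit what these libraries show.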
